A study of Bos taurus with 16 samples.

Results

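COX1, COX2 and COX3 are the cytochrome c oxidase subunits that animals encode in mitochondrial DNA, and their transcripts were followed here in mammary fat pad from Holstein heifers at birth. They are 3 of the 37925 transcripts in each file and 3 of a run of 13 consecutive transcripts that stood out for abundance. The members were picked by their place in that run and by length, 1545 nt for COX1, 684 nt for COX2 and 781 nt for COX3, with results of these data already known. Their high level therefore describes the choice and is not a finding. For the same reason all p-values on the members are descriptive only.

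The calves came from dams kept under heat stress, or cooled, through the closing 54 ± 5 days of pregnancy in a subtropical summer. No genotype or other agent is named for either group. The listing holds 8 libraries per group where the series text has 6 calves per group, and no label ties a library to an animal, so each p-value speaks for the spread among libraries, which may be partly technical. Cooled replicates 1 and 2 were deposited with identical values and were counted once, which left 7 cooled and 8 heat-stressed libraries with 40573338 to 55317188 counts each. Transcript IDs could not be paired with gene symbols, so markers of adipocytes, mammary epithelium or other cells were not examined, and neither were the nuclear-encoded subunits of the enzyme.

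Cytochrome c oxidase is the last enzyme of the mitochondrial respiratory chain. It takes electrons from cytochrome c, passes them to oxygen to form water and pumps protons across the inner membrane. COX1 carries the haem and copper site where oxygen is reduced, COX2 carries the copper centre that receives electrons from cytochrome c, and COX3 holds no redox centre and supports the core. The 3 genes lie on the same strand and are copied as parts of long RNAs that are cut into separate messages. Fat is a tissue in which mitochondrial content varies widely between white and brown depots.

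The names rest on length and order. All 13 lengths equalled those of the 13 protein-coding genes that RefSeq places on the bovine mitochondrial genome. Transcripts 1 to 7 of the run stood in the reverse of the RefSeq order, from COX3 through ATP6, ATP8, COX2, COX1 and ND2 to ND1, and transcripts 8 to 13 followed it from ND3 to CYTB. Length alone was not unique in the files: 19 other transcripts had the length of COX1, 14 that of COX2 and 7 that of COX3. Of those, the most abundant took on average 0.00545%, 0.0475% and 0.00562% of counts, far under the members. The lengths of COX1 and COX2 are divisible by 3, while that of COX3 leaves a remainder of 1, as in mitochondrial genes whose stop codon is completed by the poly(A) tail. Estimated counts of all 3 members were whole numbers (tolerance 0.0005) in 15 of 15 libraries. The transcript just before the run reached at most 48.8 counts in a library, and the one just after it was at 0.

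A pair of libraries was left out in some comparisons. Cooled replicate 4 had the smallest share of counts in the 13 transcripts (10.1%), with heat-stressed replicate 4 next at 11.7%. Heat-stressed replicate 6 had the smallest share of those 13 in the 3 members (49.0%), with cooled replicate 7 next at 52.5%. Each also passed an outlier limit within its own group on a measure given near the end. Results that change without either library are given with and without. The pair was chosen after seeing the data, so p-values without it are descriptive only. The series compared heat-stressed with cooled gestation, and edgeR's quasi-likelihood test called 0 of 19180 transcripts at an adjusted p under 0.05 (0%). At an unadjusted p under 0.05 it had 436 (2.27%), and 248 of these were lower in heat-stressed libraries (1.29% of all tested). The count of 436 became 253 or 279 on leaving out heat-stressed replicate 4 or 5, 273 or 908 on leaving out cooled replicate 3 or 4, and 2024 on leaving out heat-stressed replicate 6. With cooled replicate 4 and heat-stressed replicate 6 both left out it was 2988, and 1 transcript, none of the members, passed the adjusted threshold. The filter on low counts was run anew when libraries were left out, so the number tested can differ. Limma-voom called 0 with 593 unadjusted. DESeq2, fitted to all 30608 transcripts with any count, called 57 with 1039 unadjusted. None of the 3 members was among those that limma-voom or DESeq2 had.

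As a description of what chose them, COX1 was the most abundant transcript by counts in 14 of 15 libraries and came second in heat-stressed replicate 4. COX3 held rank 2 or 3 in every library. COX2 ranged from rank 3 in heat-stressed replicate 2 to rank 13 in heat-stressed replicate 4. Together the 3 members took 6.76% (cooled replicate 4) to 17.2% (cooled replicate 7) of all counts.

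COX1, the catalytic subunit, took 4.36% (replicate 4) to 11.0% (replicate 3) of counts in cooled libraries with a median of 8.39%. In heat-stressed libraries it took 4.33% (replicate 6) to 9.80% (replicate 1), with a median of 6.39%. The groups overlapped over nearly their whole ranges, although 7 of the 8 libraries from heat-stressed gestation were under the cooled median. Means were 7.98% ± 2.48 (SD, n = 7) and 6.35% ± 1.68 (SD, n = 8). The difference of -1.62 percentage points had a 95% interval of -3.98 to 0.726 and did not exceed the spread between libraries (two-sided exact permutation p = 0.157; adjusted p = 0.472 over 9 library measures).

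COX2, the electron-receiving subunit, was the least abundant member. Its cooled shares ran from 0.778% (replicate 4) over a median of 1.27% to 2.29% (replicate 7). Heat-stressed shares ran from 0.747% (replicate 4) over a median of 1.16% to 1.74% (replicate 2). Cooled replicate 7 stood above every other library, and the remaining libraries of both groups covered similar ranges. The means of 1.36% ± 0.512 (SD, n = 7) and 1.20% ± 0.356 (SD, n = 8) differed by -0.162 points with an interval of -0.655 to 0.315 (exact permutation p = 0.496, adjusted p = 0.558). On leaving out cooled replicate 7 it was -0.0066 points, so nearly all of it came from that library. It was -0.259 points on leaving out cooled replicate 4 and -0.0966 on leaving out heat-stressed replicate 4.

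COX3, the supporting subunit, took 1.62% (replicate 4) to 4.47% (replicate 7) of counts in cooled libraries, with a median of 3.47%. In heat-stressed libraries it took 1.91% (replicate 4) to 3.42% (replicate 1), with a median of 2.72%. Every one of the 8 heat-stressed values was under the cooled median and 4 of 7 cooled values were over every heat-stressed one, but cooled replicate 4 was the lowest of all 15. The means of 3.36% ± 0.861 (SD, n = 7) and 2.68% ± 0.571 (SD, n = 8) differed by -0.687 points with an interval of -1.44 to 0.116 (exact permutation p = 0.0911, adjusted p = 0.472). On leaving out cooled replicate 4 it became -0.978 points (exact permutation p = 0.0050, adjusted p = 0.0450), and with heat-stressed replicate 6 left out too, -0.927 points (exact permutation p = 0.0047, adjusted p = 0.0420). Cooled replicate 4 held the lowest of these same values and the pair was chosen after seeing the data. The p-values without them are therefore descriptive only. Over the alternatives for COX3 the adjusted p ran from 0.0420 to 0.711. In bulk tissue, fewer cells rich in mitochondria and less of this RNA per cell cannot be told apart.

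**Figure D1:**
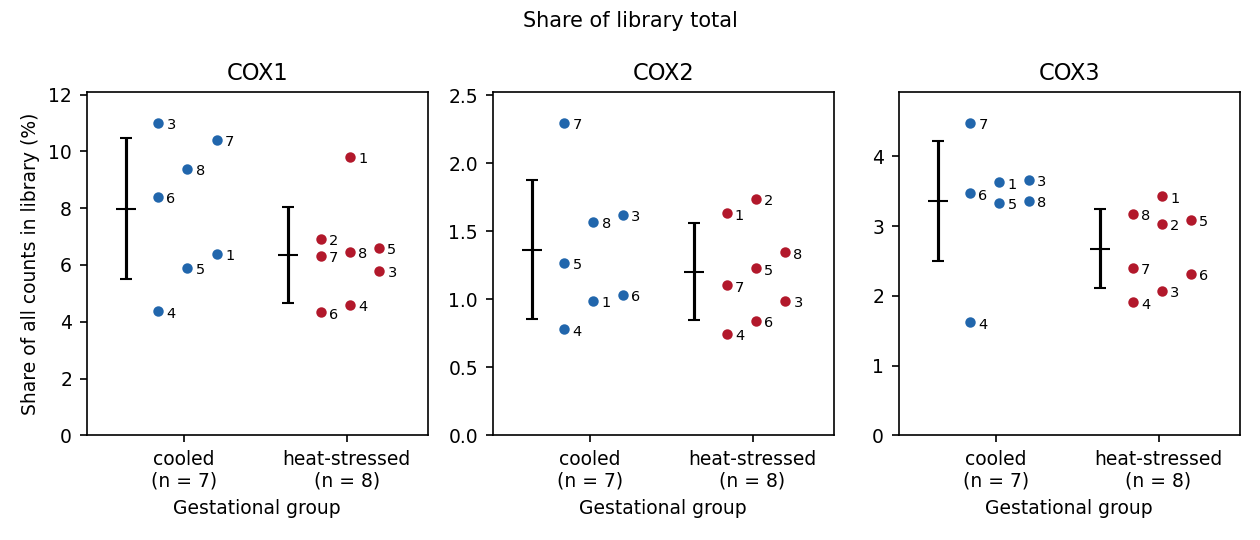
Share of all counts in a library (%, vertical axis) taken by COX1, COX2 and COX3 in cooled (blue, n = 7) and heat-stressed (red, n = 8) libraries. Points are libraries with their replicate numbers and black bars are mean ± SD; cooled replicate 4 sits at 1.62% for COX3, below all other libraries, and cooled replicate 7 at 2.29% for COX2, above them.

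In the fit over all transcripts COX2 again had the smallest difference, with a log2 fold change of -0.30 (SE 0.28) and a 95% interval of -0.89 to 0.29. For COX1 the estimate was -0.43 (SE 0.25) and the interval -0.96 to 0.09, and for COX3 they were -0.45 (SE 0.23) and -0.94 to 0.05. In edgeR all 3 had an adjusted p of 0.996, and their unadjusted p-values were 0.10 (COX1), 0.298 (COX2) and 0.0738 (COX3). On the linear scale the intervals reached from 0.513 to 1.07 of the cooled level for COX1, from 0.540 to 1.22 for COX2 and from 0.521 to 1.03 for COX3. The COX1 value was -0.28 on leaving out cooled replicate 3 and -0.30 for heat-stressed replicate 6 (unadjusted p = 0.290 and 0.233 in edgeR). It was -0.50 for cooled replicate 4 and -0.57 for heat-stressed replicate 1 (unadjusted p = 0.0424 and 0.0313 in edgeR). The COX3 value was -0.31 for cooled replicate 7 and -0.34 for heat-stressed replicate 6 (unadjusted p = 0.192 and 0.175 in edgeR). For cooled replicate 4 and heat-stressed replicate 1 it was -0.53 and -0.52 (unadjusted p = 0.0150 and 0.0462 in edgeR). With cooled replicate 4 and heat-stressed replicate 6 both left out it was -0.47 (unadjusted p = 0.0265 in edgeR). None of these values passed the adjusted threshold. The COX2 value was -0.05 on leaving out cooled replicate 7 (unadjusted p = 0.827 in edgeR), -0.19 for cooled replicate 3, and -0.19, -0.16 and -0.20 for heat-stressed replicates 3, 6 and 7.

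The other 10 transcripts of the run, which have the lengths of complex I subunits, ATP synthase subunits and cytochrome b, serve as the rest of the pathway. None of the 10 passed the adjusted threshold, and 8 of 10 had an unadjusted p under 0.05 in edgeR, all of them lower in heat-stressed libraries, against 0 of 3 members and 1.29% of all tested transcripts. The median log2 fold change was -0.90 over the 10, -0.43 over the 3 members and -0.06 over all tested transcripts, of which 20.0% had a value at or below that of COX3. ND3, a complex I subunit, was the only one of the 10 with an estimate (-0.39) inside the range of the 3 members. Whether the members and the 10 differ was not tested on this scale, because the members were chosen with these estimates known.

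**Figure D2:**
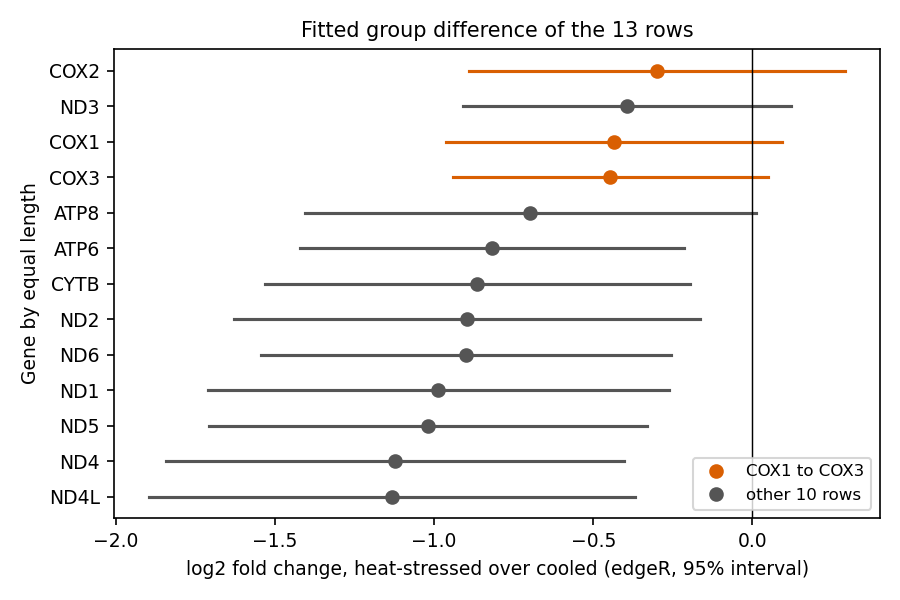
Fitted log2 fold change, heat-stressed over cooled (horizontal axis), with 95% intervals from edgeR for the 13 transcripts, named by equal length. COX1, COX2 and COX3 (orange) and ND3 have estimates from -0.45 to -0.30 and intervals that include 0, while the estimates of the other 9 run from -1.13 to -0.70, with an interval that includes 0 for ATP8.

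Each member was next measured against the 13 transcripts alone, which takes their common yield out of the value. Such shares are parts of a single sum, so a rise in a member partly restates a fall in the rest of the run. That rest took a mean of 9.25% of all counts in cooled libraries and 5.85% in heat-stressed ones. Because the members were chosen with results of these data known, all p-values on these shares are descriptive only. The same holds for those on the shares of library total and on the ratios between members. COX1 made up 31.7% (replicate 1) to 43.3% (replicate 4) of the 13 in cooled libraries, with a median of 37.9%. The heat-stressed range was 28.4% (replicate 6) to 44.4% (replicate 3), with a median of 39.6%. Heat-stressed replicate 6 fell below every cooled library, whereas the other 7 of its group exceeded the cooled median. The difference in means was 2.35 points with an interval of -3.13 to 7.69 (exact permutation p = 0.365, adjusted p = 0.512). Leaving out cooled replicate 1 or 7 gave 1.47 or 1.49 points. Leaving out heat-stressed replicate 6 gave 3.92 points (exact permutation p = 0.0828), and leaving out cooled replicate 4 as well gave 4.97 points (exact permutation p = 0.0303, adjusted p = 0.103). Heat-stressed replicate 6 held the lowest of these same values, so p-values without it are descriptive only. Over the alternatives the adjusted p for COX1 ran from 0.103 to 0.887.

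COX2 made up 4.70% (replicate 6) to 7.72% (replicate 4) of the 13 in cooled libraries with a median of 7.01%, and 5.50% (replicate 6) to 10.2% (replicate 2) with a median of 7.39% in heat-stressed ones. Heat-stressed replicate 2 stood highest by a wide margin and the rest overlapped. The difference of 1.10 points had an interval of -0.345 to 2.58 (exact permutation p = 0.131, adjusted p = 0.472). It was 0.696 points without heat-stressed replicate 2. Leaving out the pair of cooled replicate 4 and heat-stressed replicate 6 gave 1.60 points (exact permutation p = 0.0344, adjusted p = 0.103). That pair was chosen after seeing the data, so its p-value is descriptive only. Over the alternatives the adjusted p for COX2 ran from 0.103 to 0.859.

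The spread of COX3 was close to that of COX1, 1.51-fold between the lowest and the highest library against 1.57-fold, or 1.40-fold for COX1 without heat-stressed replicate 6, and below that of COX2 (2.17-fold). Its part of the 13 ran from 12.6% (replicate 3) over a median of 15.7% to 19.1% (replicate 5) in cooled libraries and from 14.8% (replicate 7) over 16.0% to 19.0% (replicate 8) in heat-stressed ones. The ranges overlapped over most of their length. The difference was 0.878 points with an interval of -1.31 to 3.07 (exact permutation p = 0.398, adjusted p = 0.512). With each library left out it ran from 0.357 points (cooled replicate 3) to 1.43 points (cooled replicate 5), with 0.532 for cooled replicate 7, 0.583 for heat-stressed replicate 5 and 0.536 for heat-stressed replicate 8.

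**Figure D3:**
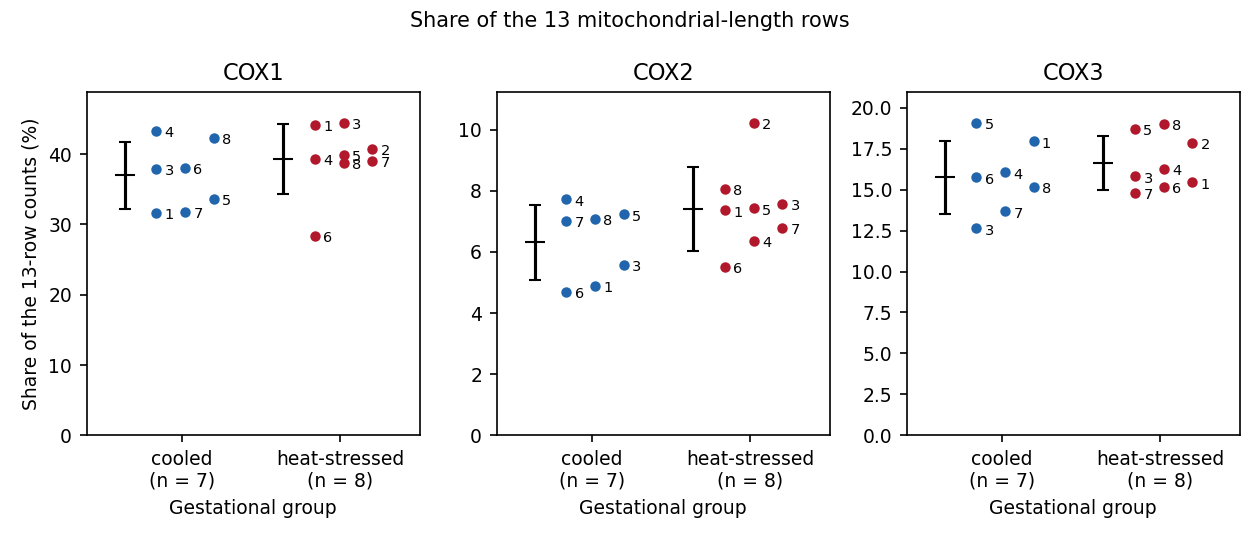
Share of the counts in the 13 mitochondrial-length transcripts (%, vertical axis) held by COX1, COX2 and COX3 in cooled (blue, n = 7) and heat-stressed (red, n = 8) libraries; points carry replicate numbers and bars are mean ± SD. Heat-stressed replicate 6 has the lowest COX1 value at 28.4%, and heat-stressed replicate 2 the highest COX2 value at 10.2%.

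Summed, the 3 members held 59.0% ± 5.29 of the 13 (SD, n = 7) after cooling and 63.4% ± 6.43 (SD, n = 8) after heat stress, given without a test because the sum is over chosen members. Without cooled replicate 4 and heat-stressed replicate 6 these shares were 57.7% ± 4.32 (SD, n = 6) and 65.4% ± 3.04 (SD, n = 7). Even then the groups overlapped, as cooled replicate 8 reached 64.6% and heat-stressed replicate 7 was at 60.6%. The members held over 50% of the 13 in 14 of 15 libraries, the exception being heat-stressed replicate 6. That library and cooled replicate 1 also had the largest parts of the 13 in the complex I transcripts, 27.8% and 27.2%, and cooled replicate 4 the smallest, 16.8%.

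Ratios between members do not depend on the library total. Per nucleotide of length, COX2 stood at 0.278 (cooled replicate 6) to 0.567 (heat-stressed replicate 2) of COX1. The mean log2 ratio was -1.39 ± 0.30 (SD, n = 7) after cooling and -1.24 ± 0.21 (SD, n = 8) after heat stress. The difference of 0.15 had an interval of -0.14 to 0.44 (exact permutation p = 0.288, adjusted p = 0.512). It was 0.071 on leaving out cooled replicate 6 and 0.087 on leaving out heat-stressed replicate 2. COX2 was below COX1 in 15 of 15 libraries.

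COX3 and COX1 were closer to each other. COX3 ran from 0.659 (cooled replicate 3) to 1.12 (cooled replicate 1) of COX1 per nucleotide, and COX1 was the higher in 12 of 15 libraries. The mean log2 ratio was -0.25 ± 0.31 (SD, n = 7) after cooling and -0.25 ± 0.22 (SD, n = 8) after heat stress. The difference of -0.0030 had an interval of -0.30 to 0.30 (exact permutation p = 0.986, adjusted p = 0.986), so a change in this ratio of up to about 1.23-fold either way lies within the error. Its sign turned for 6 of the 15 libraries when each was left out.

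COX3 exceeded COX2 in all 15 libraries, from 1.53-fold (heat-stressed replicate 2) to 3.21-fold (cooled replicate 1) per nucleotide. The mean log2 ratio was 1.14 ± 0.36 (SD, n = 7) after cooling and 0.99 ± 0.21 (SD, n = 8) after heat stress. The difference of -0.15 had an interval of -0.48 to 0.17 (exact permutation p = 0.331, adjusted p = 0.512). It was -0.059 on leaving out cooled replicate 1, -0.081 on leaving out cooled replicate 6, -0.096 on leaving out heat-stressed replicate 2 and -0.24 with cooled replicate 4 and heat-stressed replicate 6 both left out. Cooled replicates 1 and 6, at 1.68 and 1.55, lay above all heat-stressed libraries. With group medians in place of means the sign turned, at 0.0024.

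**Figure D4:**
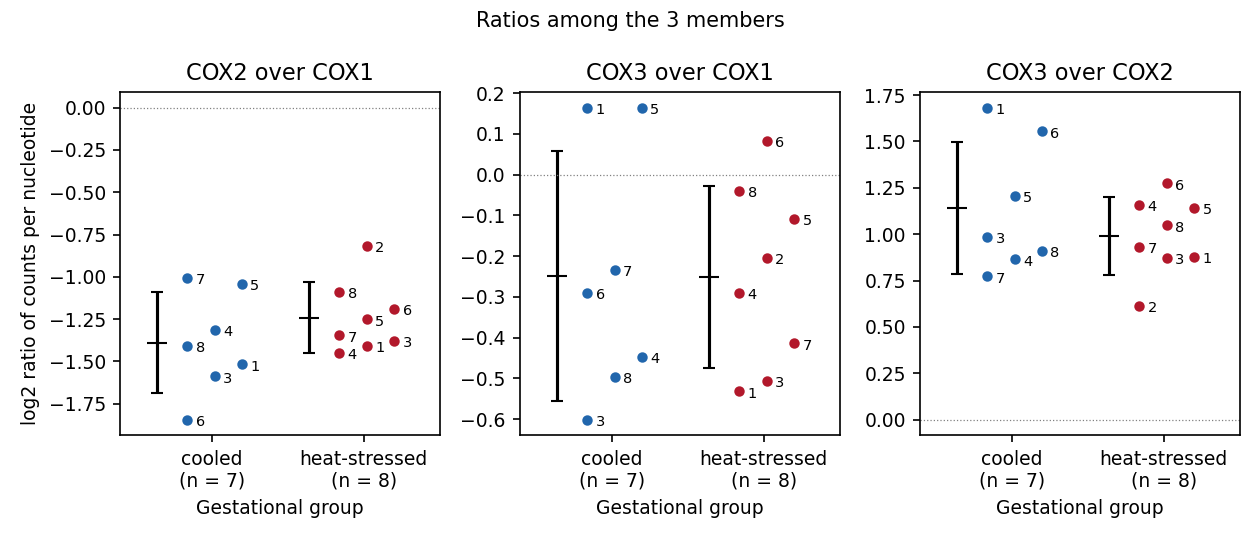
Log2 ratio of counts per nucleotide (vertical axis) for COX2 over COX1, COX3 over COX1 and COX3 over COX2 in cooled (blue, n = 7) and heat-stressed (red, n = 8) libraries; points carry replicate numbers, bars are mean ± SD and the dotted line marks equal levels. COX3 over COX1 straddles 0 in both groups with means of -0.25, and COX2 lies below COX1 in every library.

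Levels between genes were compared as CPM (counts scaled to a common library total) per kilobase of length, over all 15 libraries and without a test, as abundance chose the members. COX1 had 46024 ± 14110 CPM per kilobase (SD, n = 15), ND3 40322 ± 11325 and COX3 38379 ± 9974. COX2 had 18679 ± 6246, close to ATP6, an ATP synthase subunit, at 21242 ± 9888 and above CYTB, the cytochrome b of complex III, at 15173 ± 7920. The order of COX2 and ATP6 turned between the groups, with means of 19939 and 26361 after cooling and of 17576 and 16764 after heat stress. From COX1 down to CYTB, neighbours in this order differed by less than 1 SD, except that COX3 exceeded ATP6 by more than that. At the lower end ND5, a complex I subunit, had 1928 ± 1134.

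The levels also differed in how much they varied between libraries. With the groups pooled, the coefficient of variation of CPM per kilobase was 26.0% for COX3, 30.7% for COX1 and 33.4% for COX2. ND3 had 28.1%. The other 9 transcripts ran from 46.5% (ATP6) to 63.5% (ND4L), and the wider group differences of those 9 enter these pooled values. Within the cooled group COX3 (25.6%), COX1 (31.1%), ND3 (33.8%) and COX2 (37.5%) had the smallest coefficients. Within the heat-stressed group ND3 (15.8%), CYTB (19.3%), COX3 (21.3%) and ND6 (23.9%) came before COX1 (26.4%), and COX2 (29.6%) stood below ATP6 (30.9%).

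**Figure D5:**
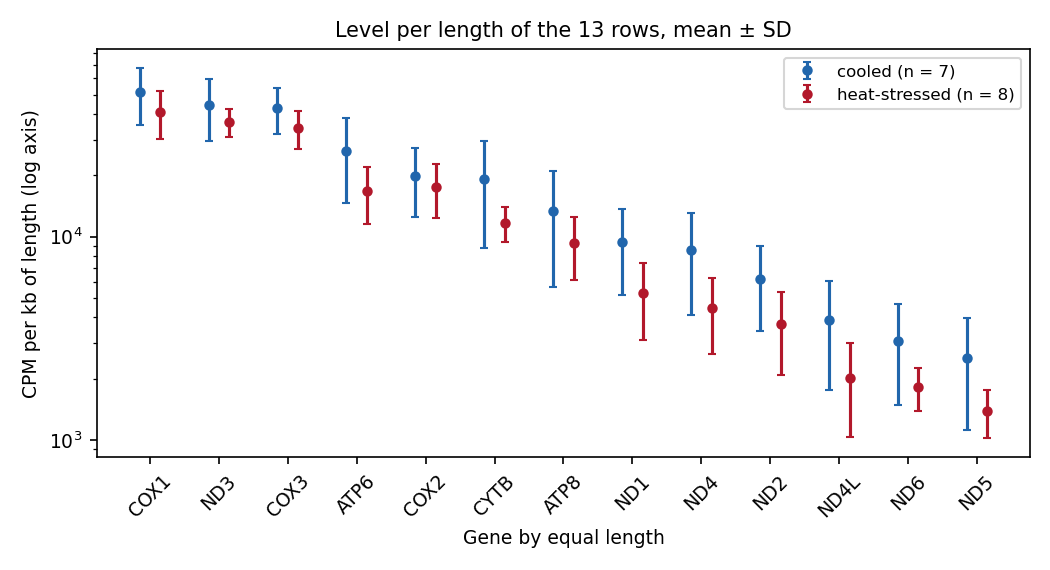
Mean level per length of the 13 transcripts in CPM per kilobase (vertical log axis) with SD bars, in cooled (blue, n = 7) and heat-stressed (red, n = 8) libraries, ordered by the mean of all 15. COX1, ND3 and COX3 lead, and COX2 (17576) lies just above ATP6 (16764) in heat-stressed libraries and below it in cooled ones.

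The members rose and fell together from library to library. Over 15 libraries the log2 CPM of COX1 and COX2 had a Pearson r of 0.84 (permutation p = 0.00012) and a Spearman rho of 0.85 (permutation p = 0.0001). COX1 and COX3 had 0.82 (permutation p = 0.00013) and 0.83 (permutation p = 0.00021), and COX2 and COX3 had 0.79 (permutation p = 0.00027) and 0.67 (permutation p = 0.00809). Without the 2 libraries farthest from the x median, r was 0.79, 0.77 and 0.68. Within the cooled group r was 0.83, 0.79 and 0.75, and 0.71, 0.49 and 0.69 without its replicate 4. Within the heat-stressed group it was 0.88, 0.79 and 0.89, and 0.85, 0.83 and 0.90 without its replicate 6. Adjusted over the 6 relations computed, the permutation p of the Pearson r was 0.00026, 0.00026 and 0.000405. The members share library, depth and denominator and were chosen with results of these data known. These values, p-values included, therefore describe the libraries only.

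Each member was also set against the summed counts of the other 10 transcripts. COX3 followed that sum with r = 0.84 (permutation p = 7e-05, adjusted 0.00026; rho = 0.89, permutation p = 3e-05) and with r = 0.74 without the 2 farthest libraries. COX1 had r = 0.73 (permutation p = 0.00177, adjusted 0.00212; rho = 0.63, permutation p = 0.0139), and 0.55 without the 2 farthest. For COX2 r was 0.61 (permutation p = 0.0166, adjusted 0.0166) and rho 0.46 (permutation p = 0.088). Without the 2 farthest, cooled replicate 7 and heat-stressed replicate 4, r was 0.35. The pooled r for COX2 thus leaned on those libraries, whose removal also narrows the range of COX2. Within the cooled group r was 0.88 (COX1), 0.80 (COX2) and 0.95 (COX3). Within the heat-stressed group it was 0.23, 0.23 and 0.47, and without heat-stressed replicate 6 it was 0.82, 0.64 and 0.74; the cooled values without replicate 4 were 0.73, 0.67 and 0.90. Whether the members or the groups differ in r was not tested. Each member and that sum share library, depth and denominator too, so these p-values are descriptive only.

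Likeness of pattern was described by Pearson r of TMM-scaled log2 CPM over the 15 libraries, with no test. COX1 was closest to COX2 (0.89) and then COX3 (0.88) among the 13, and COX2 was closest to COX1 and then COX3 (0.86). COX3 was closest to CYTB (0.91) and ND3 (0.89). The farthest of the 13 was ATP8 for COX1 (0.58) and COX3 (0.63), and ND4L for COX2 (0.45). Among 3812 other transcripts whose mean log2 CPM reached 5, the highest r was 0.82 with COX1 (ENSBTAT00000020094.3), 0.76 with COX2 (ENSBTAT00000040264.4) and 0.81 with COX3 (ENSBTAT00000014213.5), each below the best match inside the run.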

How the data were processed

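Per the file headers, each of the 16 deposited tables gives, for 37925 Ensembl transcripts, length, effective length, TPM and estimated counts of reads, which the authors' quantifier need not return as whole numbers. The deposited TPM values are those estimates divided by effective length and scaled to a fixed total. Per the submitters' processing notes, the tools listed without role or order were STAR 2.7.10a, cutadapt and Trimmomatic 0.40, FastQC 0.11.9, DESeq2 1.38.3 and, as well, R 4.3.1; the build named was ARS-UCD1.2. The quantifier is not given in the sources used here. Gene names came from RefSeq (ARS-UCD2.0) by length, since 0 IDs matched.

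Estimated counts were rounded and tested with edgeR 4.0.16 in R 4.3.3 (quasi-likelihood F test, TMM scaling, filterByExpr, Benjamini-Hochberg adjustment, threshold 0.05). Shares and ratios were compared by exact permutation over all 6435 assignments of libraries, with intervals by inverting that test and adjustment over 9 measures. Correlations used 100000 resamples. Wilson 95% intervals on a share were at most 0.0093 points to each side and cover counting error only. Alternatives used DESeq2 1.42.0, limma 3.58.1, other scalings, filters and denominators, TPM, medians, a replicate block and left-out libraries. The edgeR step was tested on simulated data. The members, lists and tests were chosen with earlier results of these data known. The rule for named genes took the 3 members, the other 10 of the run and, per member, the most similar transcript outside it.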

Additional observations from a re-analysis of the deposited data

Results flagged for a closer look

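The gap of the highest or lowest library to its neighbour was set against Dixon's 95% limit in 18 sets (9 measures by gestational group), and 2 exceeded it, where chance gives about 1 set in 20. Cooled replicate 4 had a COX3 share of library total of 1.62%, and the next cooled library had 3.34%. Heat-stressed replicate 6 had a COX1 share of the 13 transcripts of 28.4%, and the next heat-stressed library had 38.7%.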

How the results depend on the processing

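No measure of the 3 members passed its adjusted threshold except COX3's share of library total, which did so without cooled replicate 4 (-0.978 points) and with heat-stressed replicate 6 left out too (-0.927 points); leaving out each library gave -0.978 to -0.502 points. That pair was left out as a choice made after seeing the data. The log2 fold changes of COX1, COX2 and COX3 stayed negative and uncalled in all 26 alternatives each. Other scalings gave smaller drops than the main fit with TMM (-0.43, -0.30 and -0.45). They were -0.37, -0.23 and -0.38 with scaling factors computed without the 13 transcripts, and -0.33, -0.18 and -0.33 with no scaling factors. COX2's share of library total turned to 0.0065 points with TPM. COX3 over COX1 turned to 0.043 with group medians and ran from -0.062 to 0.066 when each library was left out; COX3 over COX2 was 0.0024 with medians. The causes were not tested. The number of transcripts called was 57 with DESeq2, 1 without the pair, and 0 to 1 (the 1 without cooled replicate 4) when each library was left out. At an unadjusted p under 0.05 the count was 436 of 19180 tested, against 3116 without the filter on low counts and 1039 with DESeq2. Those 2 fits took in all 30608 transcripts with any count, so the counts are over unlike sets. With the replicate number as a block edgeR called 0, with log2 fold changes of -0.44 (COX1), -0.35 (COX2) and -0.45 (COX3), and no other call changed. Deviations of libraries with equal numbers had r from -0.211 to 0.127 (2 of 7 over 0.1, and 1 library nearest its own number), so the numbers were not taken to pair libraries. Counting error was small at this depth, and the spread between libraries set the limits.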

Other observations

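The order of the members depends on the length used. Per kilobase of effective length, COX3 had a mean of 56342 CPM and COX1 54867 CPM over the 15 libraries, and COX3 was above COX1 in deposited TPM in 9 of 15 libraries, whereas COX1 was above COX3 per full length in 12 of 15. COX2 was below COX1 in TPM in all 15. ATP8, with an effective length of 10.0 nt, rose from the seventh place per full length to the first per effective length, and COX1 moved from the first to the fourth.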
